A study of Mus musculus with 2 samples.

Results

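Of 20807 protein-coding genes on the mouse autosomes, 405 had an accessible promoter in thymus although few CpG dinucleotides surrounded their 5′ end. These CpG-poor open promoters were taken as genes of the GENCODE M21 annotation with fewer than 15 CpGs within 500 bp on either side of the annotated 5′ end (1001 bp in all) and a strict peak within 1 kb of that end in both samples. The choice used the peaks themselves, so the presence of a peak is a description and not a result. They came from 5814 CpG-poor genes, of which 5309 had no strict peak in either sample and 100 had a peak in 1 sample. Accessibility was measured by DNase-seq, in which the enzyme DNase I cuts DNA where chromatin is open and the cut ends are sequenced. The 2 samples were whole thymus of male B6CASTF1/J mice, bred by crossing C57BL/6J with CAST/EiJ, aged 2 months and without treatment per the labels. The labels number a separate animal for each (replicates 1 and 2) but give both the same donor identifier. With 1 group of 2 samples and members chosen by the readout, values are given per replicate and no test was made.

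Most mammalian promoters, above all those of housekeeping genes, lie in CpG islands, where unmethylated CpG-rich sequence is accessible in nearly every tissue. CpG-poor promoters form the other class: they are usually methylated and closed, and they open in particular cell types where sequence-specific factors bind them, often together with distal enhancers. Many genes of differentiated cells, T cells among them, have promoters of this second class. A DNase I footprint is a short stretch inside an open region that is cut less than its surroundings, as a bound protein leaves it.

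The strict lists held 63832 peaks in replicate 1 and 67929 in replicate 2, and 51709 regions were shared, of which 29398 lay over 1000 bp from any annotated start site and are called distal. The deposited score of a peak came in whole multiples of 1 step per sample, and the members' scores corresponded to 45 to 2928 steps in replicate 1 and 53 to 2452 in replicate 2. The depth of the libraries is not stated. The tissue label was set beside markers: 12 of 12 CpG-poor genes for T cell receptor kinases and adaptors were open and 0 of 15 hepatocyte genes, where 6.97% of all CpG-poor genes were. These lists stand at the ends of the range. Lists of thymus cells varied, with 15 of 23 T cell surface molecules, 1 of 5 thymic epithelial genes and 0 of 3 T lineage transcription factors. These counts use the same peaks as the choice of members. The label of few CpGs held at the 5′ end by construction, but not always at the peak. For 258 members the 1001 bp centred on the peak also held fewer than 15 CpGs in both replicates, for 125 they held 15 or more in both, and for 22 the replicates differed. Results are therefore given for all 405 and, where it matters, for these classes.

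The following upstream sequences show what an open promoter with few CpGs looks like. Each is the 150 bases before the annotated 5′ end, read from the GRCm38.p6 (mm10) reference on the gene's strand, with bases inside a footprint of both replicates in capitals. Ptpn7, Selplg and Cd3g had the highest scores among members whose peak lay in CpG-poor sequence, and Gimap8 was the highest of the Gimap cluster. H2-Aa and H2-Eb1, which encode the chains of MHC class II molecules, had the longest footprinted stretches of that class. Rag2 encodes a subunit of the V(D)J recombinase. Ecm1 is shown as the only promoter of its kind with a TATA box at the usual place. The windows are chr1:135132550-135132699 (plus strand), chr5:113832645-113832794 (minus), chr9:44980432-44980581 (minus), chr6:48647084-48647233 (plus), chr17:34287824-34287973 (minus), chr17:34305717-34305866 (plus), chr2:101624568-101624717 (plus) and chr3:95739570-95739719 (minus). No annotated exon overlaps them except a noncoding Ptprv exon in the Ptpn7 window and an antisense Gm20513 exon in the H2-Eb1 window.
Ptpn7: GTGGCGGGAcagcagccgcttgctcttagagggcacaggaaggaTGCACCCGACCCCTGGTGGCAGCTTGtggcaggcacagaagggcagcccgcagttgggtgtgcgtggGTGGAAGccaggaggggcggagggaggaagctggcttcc
Selplg: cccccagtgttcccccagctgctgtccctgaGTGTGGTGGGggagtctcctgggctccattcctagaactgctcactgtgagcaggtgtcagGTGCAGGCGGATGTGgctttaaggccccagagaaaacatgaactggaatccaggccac
Cd3g: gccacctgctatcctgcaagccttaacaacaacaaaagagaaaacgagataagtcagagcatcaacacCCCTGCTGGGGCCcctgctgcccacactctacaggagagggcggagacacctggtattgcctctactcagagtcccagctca
Gimap8: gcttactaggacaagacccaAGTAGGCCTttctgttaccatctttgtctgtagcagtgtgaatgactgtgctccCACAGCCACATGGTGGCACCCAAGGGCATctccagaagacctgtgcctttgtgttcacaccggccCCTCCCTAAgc
H2-Aa: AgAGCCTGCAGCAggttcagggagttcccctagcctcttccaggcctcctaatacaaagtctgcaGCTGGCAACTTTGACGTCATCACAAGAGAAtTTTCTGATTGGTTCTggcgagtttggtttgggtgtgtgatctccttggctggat
H2-Eb1: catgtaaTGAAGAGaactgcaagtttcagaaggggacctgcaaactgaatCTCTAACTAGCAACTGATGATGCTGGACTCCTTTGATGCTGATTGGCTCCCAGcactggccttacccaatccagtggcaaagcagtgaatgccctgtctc
Rag2: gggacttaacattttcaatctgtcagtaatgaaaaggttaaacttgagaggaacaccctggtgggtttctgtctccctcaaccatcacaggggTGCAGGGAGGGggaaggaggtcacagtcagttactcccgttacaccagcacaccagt
Ecm1: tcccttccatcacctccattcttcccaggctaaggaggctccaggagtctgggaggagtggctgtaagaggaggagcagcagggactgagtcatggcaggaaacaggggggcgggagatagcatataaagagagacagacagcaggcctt
These windows held from 0 CpGs (H2-Eb1) to 6 (Ptpn7). For contrast, the next sequence is a promoter peak of the other kind, in CpG-rich DNA. It belongs to the member Alkbh5, which encodes an RNA demethylase, and lies at chr11:60537141-60537340 (plus strand), 859 bp downstream of the annotated 5′ end and outside annotated exons. Here the capitals mark CpGs, of which the 200 bases hold 25.
Alkbh5: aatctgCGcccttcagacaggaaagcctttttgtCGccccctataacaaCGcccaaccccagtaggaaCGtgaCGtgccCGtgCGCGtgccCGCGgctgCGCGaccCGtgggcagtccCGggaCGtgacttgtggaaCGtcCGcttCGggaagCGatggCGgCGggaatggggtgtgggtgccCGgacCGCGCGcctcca

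The number of CpGs at the 5′ end went with the share of genes that were open. Over all protein-coding autosomal genes 55.5% had a strict peak in both replicates, against 6.97% of CpG-poor genes (95% Wilson interval 6.34 to 7.65%, counting error only) and 74.4% of the 14993 genes with 15 or more CpGs. Within the CpG-poor class the share rose from 1.38% of 1961 genes with 0 to 4 CpGs, through 6.19% of 2196 genes with 5 to 9, to 14.6% of 1657 genes with 10 to 14. Replicate 1 alone gave 445 CpG-poor genes with a peak and replicate 2 gave 465. The limit of 15 CpGs marked no step: 19% of genes with 14 CpGs and 17.5% of those with 15 were open. The limit of 1 kb marked none either. The nearest edge of a peak lay 751 to 1000 bp from the 5′ end in 57 members, and 62 CpG-poor genes outside the class had it at 1001 to 1250 bp. Ccdc78 (1000 and 900 bp in replicates 1 and 2) and Il12a (885 and 997 bp) were just inside, and Errfi1 (1002 and 578 bp) and Cdkl2 (1003 bp in both) just outside.

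**Figure D1:**
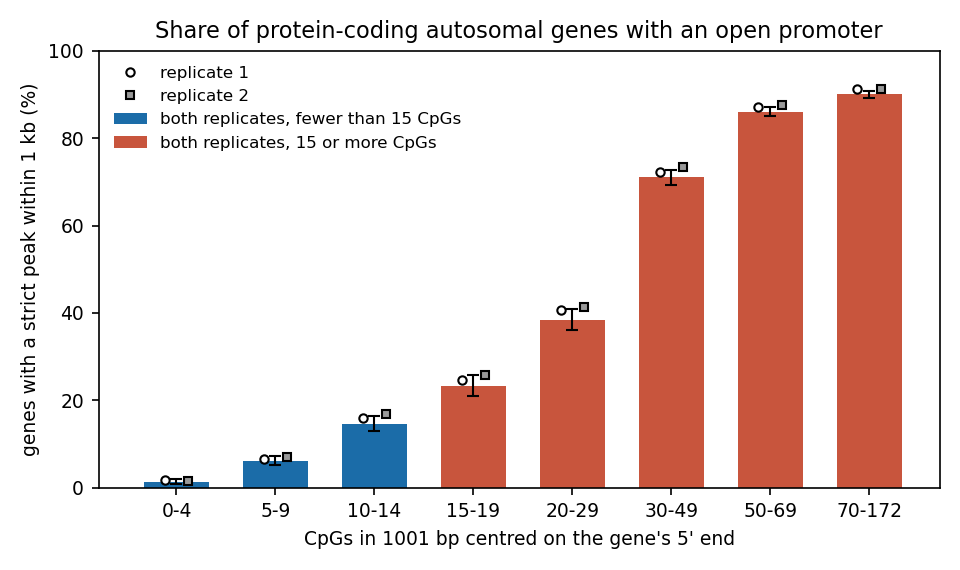
Share of genes with a strict peak within 1 kb of the 5′ end, by CpGs in the surrounding 1001 bp: bars give genes open in both replicates with 95% Wilson intervals, circles and squares each replicate alone. The 3 CpG-poor bins stand at 1.38%, 6.19% and 14.6%, and the last bin at 90.1%.

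Only a minority of the promoter peaks lay on the annotated 5′ end. The peak covered that base in both replicates in 129 of 405 members (31.9%), against 61.6% of CpG-rich open promoters and 60.6% of all open promoters. In replicate 1, 148 peaks covered it, 163 lay downstream (median centre 730 bp inside the gene) and 94 upstream (median centre at -542 bp). In replicate 2 the numbers were 153, 157 and 95. Position and sequence went together. Of the members whose class was the same in both replicates, 117 peaks over the 5′ end lay in CpG-poor sequence and 5 in CpG-rich sequence, whereas downstream peaks divided into 51 and 92, and upstream peaks into 55 and 25.

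Where a peak lay away from the 5′ end in CpG-rich DNA, it often held a start site of its own. Of the 125 CpG-rich peaks, 58 contained an annotated start site of the same gene in replicate 1 (the 5′ end itself in 7 of them). Another 11 contained a start site of a different coding gene, and 56 no annotated start site. Several of the highest scores belonged to this kind. Cabyr, which encodes a calcium-binding protein of sperm, scored highest of all members with 21.7 in replicate 1 and 14.9 in replicate 2, at a peak 988 bp downstream with 36 CpGs around it. Fyn, a Src-family kinase of T cell receptor signalling, scored 15.3 and 10.8 at an internal start site 845 bp downstream with 82 CpGs. Rbm17, Sod2, Capza2, Mtmr2 and Tap2 had the same arrangement. Of the 10 highest members, 9 had a CpG-rich peak, and Ptpn7 was the exception.

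Peaks that held a neighbour's start site gave some members whose names point away from thymus. The peak of Smyd1, which encodes a methyltransferase of heart and skeletal muscle, scored 9.36 and 7.16. It contained an annotated start site of Cd8b1, a chain of the CD8 co-receptor. Ckm, the muscle creatine kinase, scored 9.15 and 7.0 at a peak centred at -636 bp that contained an annotated start site of Klc3. The taste receptor gene Tas1r1 scored 12 and 9.18 at a start site of Nol9, and Tbc1d10c scored 15.1 and 12.1 at one of Ppp1ca. In all, 31 members had a replicate 1 peak holding an annotated start site of another coding gene. In each replicate 22 members shared their peak with another member, so the 405 members had 393 distinct peaks.

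**Figure D2:**
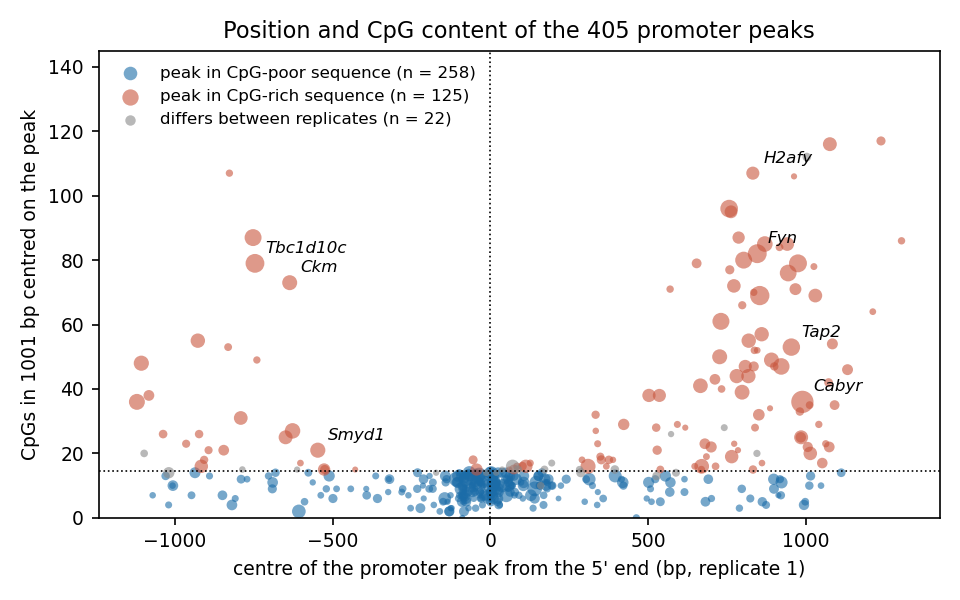
Each of the 405 members by the distance of its promoter peak's centre from the 5′ end (x axis, bp, replicate 1) and the CpGs in 1001 bp centred on that peak (y axis), with the point area growing with the score in replicate 1. The dotted horizontal line marks the limit of 15 CpGs: the 258 blue points below it gather at the 5′ end, and most of the 125 red points above it lie downstream.

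Scores of the CpG-poor open promoters were lower than those of open promoters with more CpGs. The median was 2.10 in replicate 1 and 1.85 in replicate 2, against 8.24 and 6.27 for the 11153 CpG-rich open promoters. Members whose peak was itself in CpG-poor sequence had medians of 1.90 and 1.72, and those with a peak in CpG-rich sequence 3.47 and 2.80. The single scores ranged from 0.333 to 21.7 in replicate 1 and from 0.322 to 14.9 in replicate 2. The middle of the score distribution thus lay well under that of CpG-rich promoters in both replicates, while the ranges overlapped. The peaks were of similar width, with medians of 220 and 200 bp.

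The replicates differed in scale. Replicate 1 had the higher score in 301 of 405 members, and the log2 difference (replicate 2 minus replicate 1) had a median of -0.29 and an SD of 0.45 over members. The 11153 CpG-rich open promoters had a median of -0.38 and an SD of 0.29, so the median difference had the same sign in both groups and the members scattered more around theirs. Among members the SD was 0.50 for CpG-poor peaks and 0.33 for CpG-rich peaks, whose median scores were higher. Scores were not matched, and the part of low scores in the scatter was not tested. In 390 members the peaks of the replicates overlapped, and 15 members had separate peaks. The log2 difference lay more than 1 from the median in 15 members. Emilin2, an extracellular matrix gene (0.585 and 1.67), H2-Ob, a chain of the MHC class II peptide-loading regulator (0.926 and 2.23), and Samd9l, an interferon-inducible gene (2.21 and 5.17), stood highest in replicate 2 relative to replicate 1. For H2-Ob the scores came from separate peaks, centred at 76 bp in replicate 1 and -83 bp in replicate 2, so they do not compare 1 region. At the other end were Gm10643 (4.57 and 1.36) and Lcp2, the SLP-76 adaptor of T cell receptor signalling (3.87 and 1.68).

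**Figure D3:**
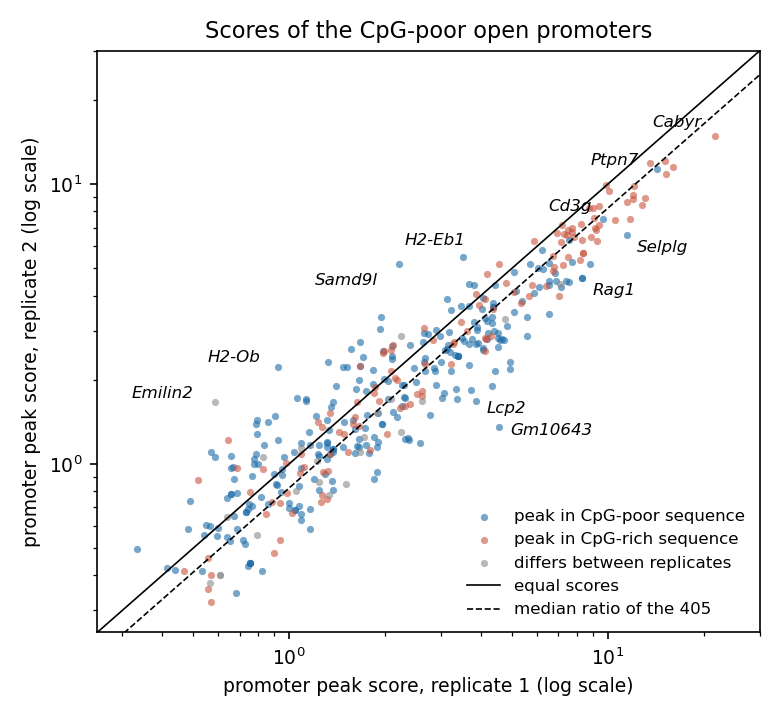
Promoter peak score of the 405 members in replicate 1 (x axis) and replicate 2 (y axis), both on log scales, coloured by the CpG content of the peak's surroundings. The solid line marks equal scores and the dashed line the median ratio, with Emilin2, H2-Ob and Samd9l above both and Gm10643 and Lcp2 below.

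Genes of the T cell receptor and its signalling pathway were members in most cases where their 5′ end was CpG-poor. The antigen receptor of T cells signals through CD3 chains, Src-family and Syk-family kinases and a scaffold of adaptors. Of 4 CpG-poor genes of the receptor complex and co-receptors 3 were open, set against the 6.97% of all CpG-poor genes. Cd3g, an invariant CD3 chain, scored 9.64 in replicate 1 and 7.49 in replicate 2. Ptcra, the surrogate alpha chain of the pre-T cell receptor, scored 4.51 and 2.62. Cd3d, another CD3 chain, scored 3.48 and 2.82, and Trat1, a receptor-associated transmembrane adaptor, had no peak. All 3 open peaks covered the 5′ end in CpG-poor sequence.

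All 12 CpG-poor genes among the kinases and adaptors were open, 11 of them with a peak in CpG-poor sequence. Ptpn7, a tyrosine phosphatase of lymphocytes that acts on MAP kinases, scored 14.3 in replicate 1 and 11.3 in replicate 2. Themis, which tunes receptor signalling during selection in the thymus, scored 7.57 and 4.47 with 6 CpGs at its 5′ end. Sh2d2a, the T cell-specific adaptor, scored 7.13 and 4.29. The exception by sequence was Fyn, described above. The remaining 8 ranged in replicate 1 from 0.763 (Fyb) to 6.56 (Ptpn22).

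Of 23 CpG-poor genes for T cell surface molecules, 15 were open (65.2%, against 6.97% of all CpG-poor genes). In 14 of these the peak was CpG-poor. The highest was Selplg, the selectin ligand PSGL-1 used in homing (11.5 in replicate 1 and 6.57 in replicate 2). Cd27, a costimulatory receptor, scored 7.07 and 4.39, and Spn, the sialophorin CD43, scored 6.90 and 4.50. Cd52, a small glycoprotein of lymphocytes, scored 5.70 and 5.2, so that its replicates differed less than those of Selplg. The lowest was Tigit, an inhibitory receptor (0.60 and 0.590). Without a peak at the annotated 5′ end were Cd160 and Cd244a, as well as Cd28 and Ptprc. For Cd28, a peak of both replicates (5.07 and 3.99) lay at another annotated start site 29558 bp away, and for Cd160 one (3.8 and 2.47) lay 14830 bp away.

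Recombination and double-positive stage genes act while thymocytes rearrange their receptor genes. Of 7 with a CpG-poor 5′ end, 4 were open (57.1%, against 6.97% of all CpG-poor genes). Rag1 and Rag2 encode the recombinase and lie side by side on chromosome 2. Rag1 scored 8.32 in replicate 1 and 4.61 in replicate 2, in a peak that also holds the 5′ end of B230118H07Rik, annotated on the same strand. Rag2 scored 5.87 and 4.08, and Endou, an endoribonuclease gene with high expression in double-positive thymocytes, scored 5.57 and 2.86. Dntt, the terminal transferase that adds nontemplated bases, had a strict peak in replicate 1 alone (3.07). The 4 open genes all scored lower in replicate 2, as did 301 of all 405 members. Their median difference was -0.81 on the log2 scale against -0.29 over all 405.

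Of T lineage transcription factor genes only 3 had a CpG-poor 5′ end, and 0 of these were open in both replicates. That is too few to tell from the 6.97% of all CpG-poor genes. Of the 27 factor genes measured, 24 had a CpG-rich 5′ end and all 24 were open. Among those with a CpG-poor 5′ end, Ets1 had a peak in replicate 1 alone at the outermost 5′ end (0.948). It was open in both replicates at an inner start site 59801 bp away, with scores of 18.5 and 15.1. Spib, a factor of B and plasmacytoid dendritic cells, had no peak at its 5′ end.

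Receptors for chemokines and cytokines were divided. Among CpG-poor chemokine receptor and egress genes 6 of 17 were open (35.3%, against 6.97% of all CpG-poor genes). Ccr7, the receptor that guides mature T cells, scored 5.14 and 4.14. S1pr4, a sphingosine phosphate receptor, scored 4.79 and 4.45 at a peak in CpG-rich sequence. Ccr1, Ccr2, Ccr3, Ccr6 and Ccr8 had no peak. Of CpG-poor cytokine receptor genes 4 of 12 were open (33.3%), led by Il12rb1 (3.96 and 3.70) and Il9r (4.59 and 2.77). Il7r, a receptor chain required for early lymphocyte development, scored 0.778 and 0.997 and had no shared footprint.

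Of 21 CpG-poor genes for effector cytokines and killing, 3 were open (14.3%, against 6.97% of all CpG-poor genes): Prf1, which encodes perforin (4.21 in replicate 1 and 2.94 in replicate 2), Fasl, the Fas ligand (1.76 and 1.50), and Ccl4, a chemokine (1.61 and 1.09). Granzyme genes such as Gzma and Gzmb and interleukin genes such as Il2 and Il10 had no peak. In the natural killer receptor complex, a cluster of C-type lectin genes, 2 of 27 were open (7.41%): Clec2i (3.47 and 3.68) and Cd69, an activation marker that also marks selected thymocytes (1.93 and 3.04). None of the 24 CpG-poor killer lectin-like receptor (Klr) genes was open in both replicates (limit for counting error alone 12.5%).

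Gimap and Schlafen genes, which regulate lymphocyte survival and quiescence, were open in 7 of 9 cases (77.8%, against 6.97% of all CpG-poor genes). All 7 had a peak in CpG-poor sequence. Gimap8 scored 7.54 in replicate 1 and 6.32 in replicate 2, and Gimap7 4.38 and 3.63. Slfn3 scored 3.15 and 2.66. For Slfn2 the highest peak differed between replicates (3.34 at 898 bp in replicate 1 and 1.86 at -2 bp in replicate 2). Gimap4 and Slfn14 had no peak.

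Among antigen presentation genes, members came from both MHC classes. MHC class II molecules display peptides on dendritic cells, B cells and thymic epithelium, and their promoters carry conserved X and Y boxes bound by RFX, CREB and NF-Y. Of 10 CpG-poor class II genes 7 were open (70%, against 6.97% of all CpG-poor genes). H2-DMb2, which edits peptide loading, scored 6.53 in replicate 1 and 5.21 in replicate 2, and H2-Ab1 scored 5.09 and 4.85. H2-Eb1 scored 3.5 and 5.48 and H2-Aa 3.8 and 4.36, so that these 2 genes were higher in replicate 2 although most members were lower there. Ciita, the class II transactivator, had no strict peak within 1 kb of its outermost 5′ end. In bulk tissue, fewer cells of a type and less opening per cell cannot be told apart. Of class I presentation genes, whose 5′ ends are mostly CpG-rich, Tap2 (12.8 and 8.43) and H2-T3 (1.05 and 0.802) were open, neither with a CpG-poor peak in both replicates.

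Genes of the interferon response were open in 9 of 14 cases (64.3%, against 6.97% of all CpG-poor genes) at modest scores. Gbp3, a guanylate-binding protein gene, scored 7.16 and 6.24 at a peak 764 bp downstream in replicate 1. Gbp4, Gbp8 and Gbp9 shared 1 peak (3.39 and 2.42). Ifi27 scored 2.39 and 2.66, and Mx1, an antiviral GTPase gene, 0.689 and 0.583. Ifit3, Iigp1 and Oas1a had no peak.

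Markers of other cell types were open in a share near that of all CpG-poor genes. Over 8 such lists, 6 of 87 CpG-poor genes were open (6.90%, against 6.97% of all CpG-poor genes), and 5 more had a peak in 1 replicate alone. Open were 1 of 8 CpG-poor B cell genes (Blk, a Src-family kinase, at 2.19 in replicate 1 and 1.48 in replicate 2), 2 of 17 macrophage and dendritic cell genes (Tyrobp at 2.36 and 1.24, Itgam at 1.37 and 1.13), and 1 of 16 granulocyte and mast cell genes (Cxcr2 at 0.674 and 0.65). Of thymic epithelial genes 1 of 5 was open, Ly6d (1.00 and 0.723), which is also on the T cell surface list. The defining genes Ms4a1, Adgre1, Mpo, Alb and Psmb11 had no peak, whereas Cd79b (0.80) and Cd68 (0.733) in replicate 1 and Lyz2 (0.596) and Mrc1 (0.413) in replicate 2 had one in that replicate alone. No gene was open among 11 erythroid, 7 endothelial and fibroblast and 15 hepatocyte genes. The limits for counting error alone were 27.3%, 42.9% and 20% (3 counts of the total). The single open muscle gene, Ckm, was the case of the Klc3 peak above. The part of these cell types in the class II peaks was not tested.

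Over the 21 lists, 76 of 244 CpG-poor list genes were open (31.1%, against 6.97% of all CpG-poor genes). Of these 76, 67 (88.2%) had a peak in CpG-poor sequence, against 191 of the 329 members on no list (58.1%). Lists and members were chosen with results of these data known, so these shares are descriptions. Among the members on no list, Ccdc88b (7.72 and 5.26), which encodes a regulator of T cell function, Trim21, an antibody receptor of the cytosol (6.20 and 5.83), and Fermt3, the integrin activator kindlin-3 (6.84 and 4.82), had the highest peaks that covered the 5′ end in both replicates, in CpG-poor sequence, apart from the partner of Rag1. They were named after their values were seen.

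Large receptor families filled the closed side. Of 1111 CpG-poor olfactory receptor genes 5 were open (0.450%), at scores in replicate 1 from 0.563 (Olfr464) to 1.74 (Olfr312). None of 327 CpG-poor vomeronasal receptor genes was open (limit for counting error alone 0.917%). Keratin and keratin-associated genes (0 of 53, counting limit 5.66%) and serpins (0 of 47, counting limit 6.38%) likewise had no member open in both replicates. Without the olfactory and vomeronasal genes, 9.14% of CpG-poor genes were open. Of 77 CpG-poor solute carrier genes 5 were open (6.49%), near the 6.97% of all CpG-poor genes. Of 69 cytochrome P450 genes 2 were open (2.90%). Higher shares came from Gbp (6 of 9, 66.7%), Trim (8 of 23, 34.8%) and the interferon-inducible Ifi200 group (3 of 8, 37.5%).

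Some open CpG-poor promoters lay beside each other in gene clusters. With neighbouring members under 100 kb apart grouped, 48 members fell into 12 clusters of 3 or more. Each cluster runs from its first to its last member. The share of members within it is therefore high by construction and not comparable to the 6.97% of all CpG-poor genes. Genes that share 1 peak counted as separate members, as in the cluster of Gbp9, Gbp8 and Gbp4, which spans 47 bp. The largest, on chromosome 17 (34092340 to 34354822), held 8 members among 10 CpG-poor genes: H2-Oa, H2-DMb2, Tap2, H2-Ob, H2-Ab1, H2-Aa, H2-Eb1 and Btnl2. Their scores ran from 0.548 (Btnl2, a butyrophilin-like gene) to 12.8 (Tap2, a peptide transporter subunit) in replicate 1. The Gimap cluster on chromosome 6 held 7 members among 8. In it Tmem176a and Tmem176b shared 1 peak (1.96 and 1.39), and Gimap7 and Gm28053 another (4.38 and 3.63). On chromosome 7, Trim5, Trim12a, Trim12c, Trim30b and Trim30a, antiviral tripartite-motif genes, were 5 of 7, and Trim12c was the highest (3.55 and 2.76). Smaller clusters were Rag2 with Rag1 and B230118H07Rik, which share a peak, as well as Cd3g, Cd3d and Jaml, an adhesion molecule gene (1.88 and 1.52).

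Footprints were fewer in the members than in CpG-rich open promoters. A footprint shared by both replicates lay in the peak of 332 of 405 members (82%), against 94.5% of CpG-rich open promoters and 94.1% of all open promoters. Footprints are called from the same cuts as the score, so the groups were also compared within quartiles of the members' mean score. From the lowest to the highest quartile, 60.4%, 76.2%, 92.1% and 99% of members had a shared footprint. CpG-rich open promoters in the same score ranges had 64.4%, 88.3%, 93.9% and 98.0%. The shares thus rose with the score in both groups, and the largest gap was in the second quartile. Over all members the median was 2 shared footprints covering 22 bp, against 4 covering 58 bp.

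Among members with a CpG-poor peak, the length covered by shared footprints had a median of 19 bp, and class II genes lay on both sides of it. H2-Aa had 91 bp in 6 shared footprints, H2-Eb1 77 bp in 4 and H2-Ab1 72 bp in 3, although their scores were lower than that of Ptpn7, with 75 bp in 5. H2-Oa had 7 bp. H2-Ob had 0 bp, but its peaks in the replicates did not overlap, so no shared footprint could be counted there. In the printed H2-Aa sequence the capitals cover the whole of TGACGTCA at -74 to -67 and the ATTGG, which reads CCAAT on the other strand, at -48 to -44. In H2-Eb1 they cover the ATTGG at -59 to -55, while CCAAT at -35 to -31 lies outside them. Rag1 was the opposite case, with 3 bp in 1 shared footprint at a score of 8.32 and 4.61. Blk, Il7r, Txk and Fyb had no shared footprint.

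Around the 5′ end, the footprint profile of the members had its maximum further upstream than that of CpG-rich promoters. In the 117 promoters whose CpG-poor peak covered the 5′ end, the share of bases in a shared footprint was highest at -60 to -51 bp, with 20%. In the 6875 CpG-rich promoters whose peak covered the 5′ end it was highest at -20 to -11 bp, with 38.9%. Bases in footprints were richer in G and C than the rest of the same peaks: 59.8% against 52.5% in members with a CpG-poor peak, and 71.3% against 64.7% in CpG-rich open promoters.

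**Figure D4:**
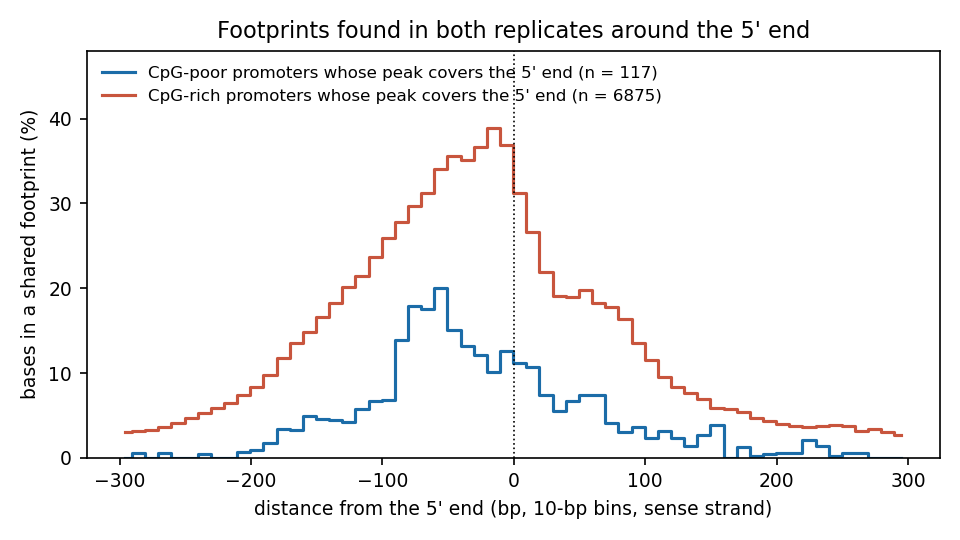
Share of bases in a footprint of both replicates, in bins of 10 bp around the 5′ end (x axis, sense strand), for 117 CpG-poor and 6875 CpG-rich promoters whose peak covers the 5′ end. The CpG-poor line stays below the CpG-rich one and peaks at -60 to -51 bp with 20%, against 38.9% at -20 to -11 bp.

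A TATA box, the classical core element of regulated promoters, was rare in the members. The letters TATAAA on the sense strand at -40 to -20 bp were found in 4 of 405 members (0.988%, 95% Wilson interval 0.385 to 2.51%): Ecm1, Cpeb4, Ccl4 and Hcrt. CpG-poor genes without a peak had it in 296 of 5309 (5.58%, 4.99 to 6.23%), and CpG-rich open promoters in 0.717%. Over all promoters the share was 2.33%. With 10 to 14 CpGs the shares were 0.826% of 242 open and 4.65% of 1355 closed genes, so the order was the same at similar CpG content. Among the 117 promoters with a CpG-poor peak on the 5′ end, Ecm1 was the only one, with its TATAAA at -27 to -22 in the sequence above. A match is a description of letters and not a functional site.

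Several short motifs of lymphoid factors occurred in more of the members' peaks than in CpG-rich promoter peaks. Windows of 201 bp centred on the peak were searched on both strands, for 241 distinct CpG-poor peaks of members, 9649 peaks of CpG-rich open promoters and 28782 shared distal peaks. ACAGGAA, an ETS-family consensus, lay in 20.7% of the members' windows, 4.14% of CpG-rich and 13.3% of distal windows. A second ETS-family form, CCGGAAG, which holds a CpG, had the reverse order against CpG-rich promoters, with 3.32%, 17.6% and 3.09%. TGTGGTT, a RUNX consensus, lay in 10.8%, 2.13% and 8.72%. CAGCTG, an E-box of E proteins, lay in 24.1%, 11% and 19.8%, and the interferon regulatory factor consensus in 6.64%, 1.36% and 2.20%. GGGCGG, bound by SP and KLF proteins, also went the other way, with 14.1%, 66% and 10.9%. For each of these motifs the members' share was closer to that of distal peaks than to that of CpG-rich promoters, narrowly so for the interferon regulatory factor consensus. At 5′ ends of CpG-poor genes without a peak, ACAGGAA lay in 7.28%, TGTGGTT in 5.64%, CAGCTG in 13.7% and the interferon consensus in 2.88%. Some other motifs were also more frequent in the members' windows than in that group. These included AACTG of MYB factors (49.8% against 40.5%), AGGGGGC of CTCF (10.8% against 1.77%), GGGCGG (14.1% against 3.54%) and CCGGAAG (3.32% against 0.867%). Others were not, as AGATAA of GATA factors (7.47% against 11.4%) and ATCAAAG of TCF/LEF factors (2.90% against 3.51%). The windows of these groups differ in base composition, whose part in the shares was not tested. In the 124 members' windows with CpG-rich peaks, GGGCGG lay in 43.5% and TGTGGTT in 1.61%.

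Motifs differed in how many of their matches lay inside footprints. Shared footprints covered 11.8% of the bases of the members' CpG-poor peaks. Of ACAGGAA matches in the members' CpG-poor windows 8.62% lay in a shared footprint, and of CAGCTG matches 11.1%. Of TGTGGTT matches 26.9% did, 7 of 26, and of the interferon regulatory factor consensus 5 of 20. AGGGGGC, the core of the CTCF motif, lay in 10.8% of these windows and 61.5% of its matches were in a shared footprint, and for GGGCGG that share was 44.4%. In the printed windows, ACAGGAA of Ptpn7 at -116 to -110 and AGATAA of Cd3g at -104 to -99 lie outside the capitals.

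Distal accessible regions were common around the members. Within 50 kb of the 5′ end, 347 of 405 (85.7%) had at least 1 shared distal peak, against 41.1% of CpG-poor genes without a peak, 82.6% of CpG-rich open promoters and 68.9% of all genes. The median was 3 distal peaks (quartiles 1 and 5) for members, 0 for CpG-poor genes without a peak and 2 for CpG-rich open promoters. The median number of other coding 5′ ends within 50 kb was 2 in each of these groups. The nearest distal peak lay a median of 13393 bp away from members and 85242 bp away from CpG-poor genes without a peak. At least 5 distal peaks surrounded 28.6% of members and 6.33% of CpG-poor genes without a peak.

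The gap narrowed with CpG content. Among genes with 0 to 4 CpGs, 70.4% of 27 open and 17.3% of 1925 closed genes had a distal peak within 50 kb. With 10 to 14 CpGs the shares were 86.0% of 242 and 71.8% of 1355, with medians of 3 and 2 distal peaks. Leaving out olfactory and vomeronasal genes, which lie in large silent clusters, raised the closed group's median from 0 to 1 and its share to 51.8%. Members with a CpG-poor and with a CpG-rich peak had medians of 3 and 2.

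**Figure D5:**
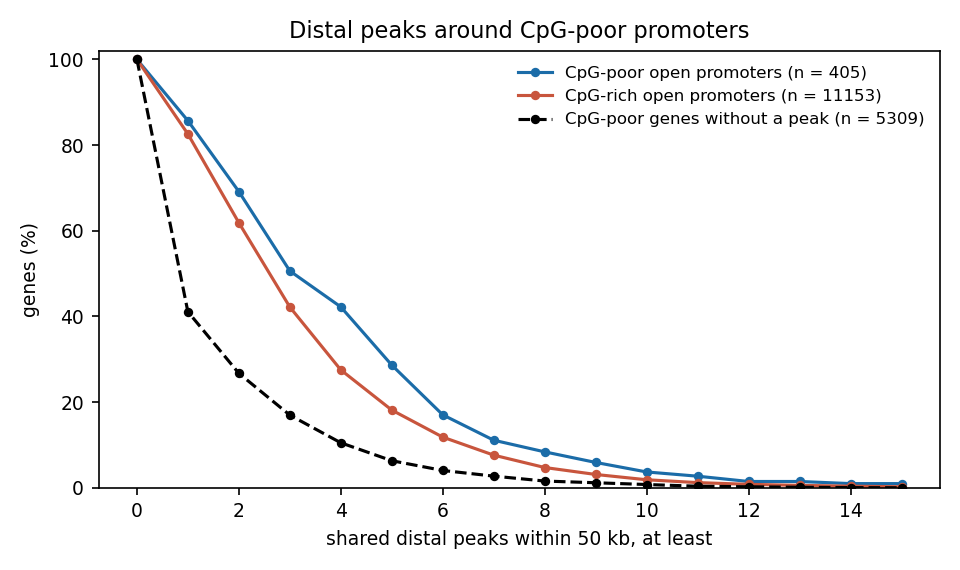
Percentage of genes (y axis) with at least the given number of shared distal peaks within 50 kb (x axis) for 405 CpG-poor open promoters, 11153 CpG-rich open promoters and 5309 CpG-poor genes without a peak. At 5 or more peaks the groups stand at 28.6%, 18.1% and 6.33%.

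Some members sat in dense regulatory neighbourhoods. Smyd1, beside Cd8b1, had 23 distal peaks within 50 kb, the most of all members. The predicted gene 2010109I03Rik had 17, and Cyp1a1, a xenobiotic-metabolising enzyme gene with a score of 0.80 in replicate 1, had 15. Kdm6b, a histone demethylase gene (2.18 and 1.99), also had 15. Of T cell genes, Cd27 and Spn each had 13 and Cd52 had 11. High scores also occurred with few of them, as Cabyr had 2 and Trim21 had 0. At Slfn3 there were 0 within 50 kb and the nearest lay 71650 bp away.

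Genes classed as closed were closed at the outermost annotated 5′ end, which is not the only start site of many. Of the 5309, 457 (8.61%, 95% Wilson interval 7.88 to 9.39%) had a strict peak of both replicates within 1 kb of another annotated start site. Examples from the lists are Prss16, a thymus-specific protease gene (3.43 and 3.07 at 3330 bp), and Fam169b (3.25 and 2.86 at 2156 bp). Weak signal at the 5′ end itself was uncommon, with a looser peak in either replicate at 171 genes (3.22%) and a stretch under a false discovery rate of 0.05 in either at 240 (4.52%).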

How the data were processed

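DNase-seq of whole thymus was used in 2 samples, replicates 1 and 2, of male mice. Per the deposited file descriptions, the authors made every file per sample, on mm10, from that sample's alignments. Peaks carry a signal score whose scale is not stated, and the authors' FDR tracks hold q-values, listing stretches under 0.05. Footprint rows, all with the deposited p-value 0.01, served as positions only. What aligned the reads and called peaks and footprints is not given in the sources used here.

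Overlapping entries of a list were joined, keeping the highest score. The promoter score was the highest strict peak (of the shorter list) within 1000 bp of the gene's outermost 5′ end in GENCODE M21. Peaks or footprints of both replicates counted as shared from 1 bp of overlap. Sequences came from GRCm38.p6. Repeat bases were those masked there. Scripts used Python 3.11.15, pandas 2.3.3, pysam 0.24.0 and samtools 1.23.1, and were tested on simulated data, where 400 of 400 simulated promoters were called open or closed as implanted.

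Members and gene lists were chosen with earlier results of these data known. Named genes were the 10 highest members, up to 4 members and 2 closed genes per list, the 8 members with most distal peaks and the 8 with most footprint bases, those nearest the limits, the 5 largest replicate differences each way, and the 5 largest clusters. Other names and the printed sequences were chosen after their values were seen. No test was made. Intervals are 95% Wilson intervals for counting error over genes. A limit beside a count of 0 is 3 counts of the total. It covers counting error alone and treats genes as independent, which clustered relatives are not. Alternatives changed the CpG limit, promoter distance, peak list, distal reach, footprint overlap and TATA letters, or left out a replicate. Some genes are not reported here.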

Additional observations from a re-analysis of the deposited data

How the results depend on the processing

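No paired analysis was possible because there was 1 group and no test. Of 83 recomputed values, 52 stayed within the counting interval or the spread between replicates, 31 moved and 0 reversed. The share of CpG-poor genes that were open was 3.92% with fewer than 10 CpGs as the limit, 9.88% with fewer than 20, 4.92% with a peak within 500 bp, 8.93% with the looser list and 5.61% with the 50000 highest peaks. The median score was 1.83, 2.26, 1.70, 1.45 and 2.63 under the same settings. The share with a shared footprint was 73.0% with the looser list, 89.0% with the 50000 highest peaks and 73.8% when footprints had to overlap by 50% of both. The median number of distal peaks around members was 2 with fewer than 10 CpGs and where the replicates' peaks had to overlap, 4 with the looser list, 1 within 25000 bp and 6 within 100000 bp. Around CpG-poor genes without a peak it was 1 within 100000 bp. With a peak within 500 bp, 50.3% of peaks covered the 5′ end. With TATAA as the letters, 2.96% of members had a match. Leaving out 1 replicate gave 7.65 to 8.0% open, median scores of 1.54 to 1.91, a footprint in 95.9 to 96.2% (of that replicate alone) and 3 to 4 distal peaks.

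Chosen after seeing the data, members whose peak lay in CpG-poor sequence were 4.44% of CpG-poor genes and 45.3% of their peaks covered the 5′ end. Without olfactory and vomeronasal genes 9.14% were open and the closed genes' median was 1 distal peak. The cause of these shifts was not tested. The depth is not stated, so weak promoters without a peak cannot be called closed at greater depth.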

Other observations

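In 6 of 405 members (1.48%) more than 50% of the peak's bases were masked repeat in both replicates, against 11 of 11153 CpG-rich open promoters (0.0986%): Asb6, Capn8, Ddo, Defb21, Psen2 and Zbed3. Their scores in replicate 1 ran from 0.467 (Defb21) to 2.10 (Ddo). Ribosomal protein genes, nearly all CpG-rich, gave 1 member among 7 CpG-poor genes, Rps14, whose peaks differed between the replicates (2.25 at 1002 bp in replicate 1 and 1.31 at 109.5 bp in replicate 2).

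The replicate difference varied between gene lists, as values without a test. The log2 difference of scores (replicate 2 minus replicate 1) had a median of -0.07 over the 7 open MHC class II genes. It ran from -0.53 (Cd74) to 1.27 (H2-Ob, whose scores came from separate peaks). Of these 7, 4 lay above the median of all members, as did 202 of all 405 members. Over the 12 kinases and adaptors the median was -0.46 and all 12 were lower in replicate 2, as were 301 of all 405 members. The open genes of the B cell list (Blk) and of the macrophage and dendritic cell list (Tyrobp and Itgam) had -0.57, -0.93 and -0.28. A median like that of class II was also seen over the 6 open chemokine receptor and egress genes (-0.08). Over the 2 open genes of the natural killer receptor complex it was higher (0.37). The part of cell composition in these differences was not tested.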
